A study of Mus musculus with 8 samples.

Results

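Cytochrome P450 enzymes (P450s) of families 1 to 4 are haem proteins of the endoplasmic reticulum. They insert 1 atom of oxygen into small lipophilic molecules, with electrons supplied by P450 reductase. Enzymes of families 1 to 3 oxidise drugs, pollutants and steroids, and those of family 4 hydroxylate fatty acids at their far end. In the adult kidney P450s of the Cyp2j, Cyp2c and Cyp4a groups turn arachidonic acid into lipid mediators that act on salt transport and vessel tone. Liver P450s convert the insecticide chlorpyrifos both into its oxon, the inhibitor of acetylcholinesterase, and into inactive products.

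The genes described here are all those whose symbol begins with Cyp, a family number from 1 to 4, a subfamily letter and a number. There were 84 of them among the 24151 gene symbols in the data, 3 in family 1, 50 in family 2, 9 in family 3 and 22 in family 4. RefSeq marks 5 of them as pseudogenes. The 84 genes were listed as 97 RefSeq transcripts, which were summed per gene.

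The kidneys came from embryos of ICR mice, an outbred stock, whose mothers were 8 weeks old and were injected under the skin once a day from gestation day 7.5 to 11.5. The CPF group received 5 mg/kg chlorpyrifos dissolved in dimethyl sulfoxide (DMSO), and the DMSO group the same volume of the solvent, so both groups carried DMSO. Kidneys were taken on 4 embryonic days, every 2 days between E12.5 and E18.5, all of them after the last injection. Each agent had 1 library per stage, 8 in all; the number of animals pooled in each is not given in the sources available. The p-values below measure the spread between these libraries, not the spread between animals. For agent and for stage it is what remains after both are taken out. For the change per day it is what remains after a straight line for each agent. In bulk tissue, fewer cells of a type and less RNA per cell cannot be told apart.

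Values are TPM (transcripts per 1000000), which scale each transcript by its length and each library to the same total. From E12.5 to E18.5 the noncoding RNAs Rmrp and Rpph1 together took 19.6, 23.6, 31.0 and 41.8% of the TPM in DMSO libraries and 19.3, 20.7, 21.8 and 21.3% in CPF libraries, so the remaining genes had less of the total in DMSO kidneys at E18.5. Among kidney markers, Pax2 read 37.1, 30.1, 25.2 and 15.54 TPM in the DMSO libraries and 25.7, 10.5, 16.0 and 26.5 TPM in the CPF libraries, and Wt1 read 155, 102, 104 and 69.9 TPM in the DMSO libraries and 95.9, 83.2, 76.0 and 107 TPM in the CPF libraries. Pax8, Sall1 and Lhx1 were also above 1 TPM in every library, and Cdh16, listed with 3 transcripts, was at most 0.166 TPM. The steps between low values put 1 read per kb of transcript at 0.0611 to 0.105 TPM, depending on the library. All 4-value series below run from E12.5 to E18.5.

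Of the 84 genes, 28 reached 1 TPM in at least 2 libraries and were tested: 1 of 3 in family 1, 16 of 50 in family 2, 1 of 9 in family 3 and 10 of 22 in family 4. Another 10 reached 1 TPM in 1 library only, and 46 stayed below 1 TPM in all 8. A gene that passed this filter through 1 stage or agent had to differ there, so the 28 do not stand for the 84. Of the 8 genes with several RefSeq transcripts, Cyp2r1 alone was tested; genes with several transcripts were mostly near 0 in these files (22.7% of 4777 reached a mean of 1 TPM, against 60.8% of 19374 genes with 1 transcript), so low values of the other 7 are listed values only. Many P450 genes are recent copies of each other: in 26 of the 82 genes with a transcript sequence, fewer than 75% of 50-base windows were unique to the gene, and the sources used here do not state how reads shared by copies were assigned.

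The bases before the start of transcription are shown first, because 2 receptors that control P450 genes bind there. The aryl hydrocarbon receptor (AhR) binds the core GCGTG and induces Cyp1 genes, and the liver and kidney factor HNF4 alpha binds sites such as CAAAGTCCA. The RefSeq promoter table (GRCm38.p6, the assembly that mm10 names) held 65 of the 84 genes. Each line gives the 150 bases before the start, 5′ to 3′ on the strand of the gene, with GCGTG, CAAAGTCCA and TATAAA on either strand in capitals (the last as TTTATA and GCGTG as CACGC when read from the opposite strand). Cyp1a1 and Cyp1b1 are shown for the AhR core, the Cyp2c and Cyp3a genes because their levels ran together, and Cyp2j5 and Cyp2d26 because they reached the highest levels.
Cyp1a1, chr9:57697463-57697612, plus strand: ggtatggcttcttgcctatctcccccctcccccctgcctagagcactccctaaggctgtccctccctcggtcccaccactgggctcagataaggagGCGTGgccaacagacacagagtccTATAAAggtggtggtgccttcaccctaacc
Cyp1b1, chr17:79715062-79715211, minus strand: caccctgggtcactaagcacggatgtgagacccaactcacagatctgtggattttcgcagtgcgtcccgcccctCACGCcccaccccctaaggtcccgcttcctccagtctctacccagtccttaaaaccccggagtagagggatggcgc
Cyp2c68, chr19:39741102-39741251, minus strand: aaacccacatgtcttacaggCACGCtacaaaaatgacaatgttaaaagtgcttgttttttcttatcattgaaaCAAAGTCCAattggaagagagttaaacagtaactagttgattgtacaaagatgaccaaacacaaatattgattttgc
Cyp2c70, chr19:40187287-40187436, minus strand: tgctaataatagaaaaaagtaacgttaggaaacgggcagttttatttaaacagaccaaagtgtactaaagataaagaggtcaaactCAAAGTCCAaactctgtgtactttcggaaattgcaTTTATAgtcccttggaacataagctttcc
Cyp3a11, chr5:145879855-145880004, minus strand: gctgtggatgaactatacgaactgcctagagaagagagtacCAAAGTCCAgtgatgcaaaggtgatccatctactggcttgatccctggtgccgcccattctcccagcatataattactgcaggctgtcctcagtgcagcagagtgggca
Cyp3a16, chr5:145469724-145469873, minus strand: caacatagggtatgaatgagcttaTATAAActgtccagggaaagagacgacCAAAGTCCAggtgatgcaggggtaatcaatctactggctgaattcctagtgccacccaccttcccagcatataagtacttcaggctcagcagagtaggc
Cyp2j5, chr4:96664120-96664269, minus strand: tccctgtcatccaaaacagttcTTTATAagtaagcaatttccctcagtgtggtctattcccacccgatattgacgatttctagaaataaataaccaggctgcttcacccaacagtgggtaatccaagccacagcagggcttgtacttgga
Cyp2d26, chr15:82794246-82794395, minus strand: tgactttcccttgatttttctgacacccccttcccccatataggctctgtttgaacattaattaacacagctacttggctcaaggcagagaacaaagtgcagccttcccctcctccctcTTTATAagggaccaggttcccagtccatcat

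Cyp1a1 had GCGTG 54 bases before its start, and Cyp1b1 had it on the opposite strand 76 bases before. In the 250 bases before the start, searched on both strands, GCGTG lay in 12 of the 65 P450 windows (18.46%) and in 28.2% of all 32851 windows in the table. CAAAGTCCA lay in 10 of 65 (15.4%) and in 0.384% of all windows; these 10 were 6 Cyp2c genes and 4 Cyp3a genes, some of them near copies of each other, and they included Cyp2c40, Cyp2c65, Cyp2c69, Cyp3a41a and Cyp3a41b, which stayed below 1 TPM in every library. Its letters were chosen after the values had been seen. TATAAA lay in 26 of 65 (40%) and in 12.4% of all windows. A match is a description of letters, not a bound site.

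The summed level of all 84 genes was 72.6, 101, 132 and 164 TPM in the DMSO libraries and 90.1, 125, 178 and 579.8 TPM in the CPF libraries. It was higher at each later stage in both agents, and the CPF library at E18.5 stood far above the rest. The CPF to DMSO ratio of the sums was 1.24, 1.24, 1.35 and 3.54 from E12.5 to E18.5, and 2.62 at E18.5 with Rmrp and Rpph1 left out of the scaling. Family 2 was the largest from E14.5 on: its sum was 26.6, 41.8, 68.3 and 108 TPM in DMSO and 33.9, 47.7, 93.1 and 472 TPM in CPF libraries. Family 4 had 31.1, 33.6, 42.3 and 42.9 TPM in DMSO and 33.9, 45.8, 50.04 and 80.9 TPM in CPF libraries. The sum of family 3 was low, at 0.188, 3.46, 1.45 and 0.779 TPM in DMSO and 1.73, 6.00, 12.8 and 2.49 TPM in CPF libraries, and was highest at E14.5 and E16.5 rather than at E18.5.

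**Figure D1:**
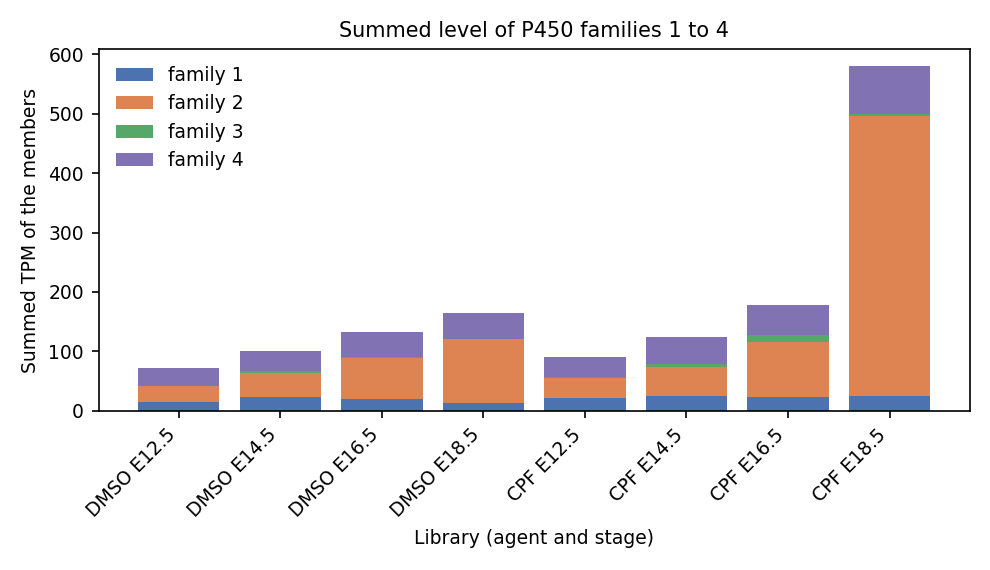
Summed TPM of the genes of P450 families 1 to 4 (stacked colours) in each of the 8 libraries, DMSO at left and CPF at right, each from E12.5 to E18.5. The bars go from 72.6 to 164 TPM in DMSO and from 90.1 to 579.8 TPM in CPF libraries, and family 2 accounts for most of the CPF bar at E18.5.

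Family 1 holds the classic targets of the AhR, which oxidise polycyclic aromatic hydrocarbons and oestrogens. In these kidneys it was almost Cyp1b1 alone (chr17:79706940-79715061), which made at least 99.0% of the family's TPM in every library. Cyp1b1 read 14.7, 22.2, 19.9 and 12.0 TPM in the DMSO libraries and 20.5, 25.2, 22.4 and 24.0 TPM in the CPF libraries. The CPF value was the higher at all 4 stages, but the ranges of the 2 agents overlapped, and the E16.5 ratio of 1.13 became 0.993 with Rmrp and Rpph1 left out. The liver enzymes Cyp1a1 and Cyp1a2 were at most 0.0359 and 0.150 TPM, which for Cyp1a2 corresponds to 3 reads. Cyp1a1 is listed with 2 transcripts. The receptor itself, Ahr, read 8.20, 10.7, 21.2 and 17.3 TPM in the DMSO libraries and 11.6, 21.5, 35.3 and 41.4 TPM in the CPF libraries, and its induced repressor Ahrr read 1.30, 0.917, 0.755 and 0.719 TPM in DMSO and 1.17, 1.53, 0.978 and 1.70 TPM in CPF libraries.

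**Figure D2:**
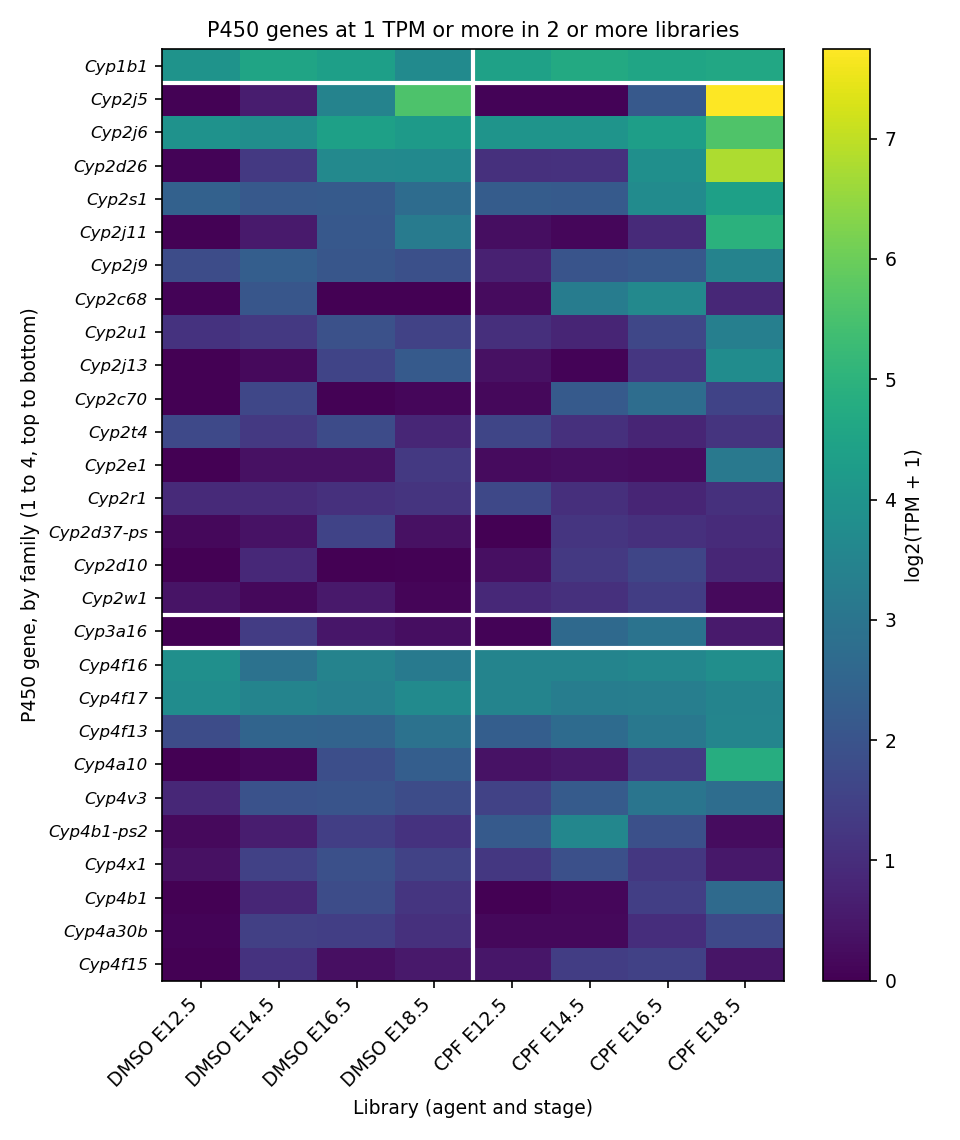
log2(TPM + 1) of the 28 P450 genes that reached 1 TPM in at least 2 libraries (rows, by family and mean level) in the 8 libraries (columns). Cyp1b1, Cyp2j6, Cyp4f16 and Cyp4f17 are present in every library, while Cyp2j5, Cyp2d26, Cyp2j11 and Cyp4a10 are brightest at E18.5.

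Between E12.5 and E18.5, 7 of the 28 tested P450 genes rose and 0 fell, where 4.67% of all 13677 tested genes rose and 3.73% fell (limma, adjusted p under 0.05 by Benjamini-Hochberg; 14 of the 28 had an unadjusted p under 0.05, and 24.6% of all tested genes). The median of the 28 was 0.85 on the log2(TPM + 1) scale, against -0.21 over all tested genes, and 21 of the 28 were above 0. The 7 were Cyp2j5, Cyp2j11, Cyp2j13, Cyp2d26, Cyp2e1, Cyp4a10 and Cyp4b1. Each was higher at E18.5 than at E12.5 in both agents. Among the 7, only Cyp2d26 reached 1 TPM at E12.5, in the CPF library. The rest passed the filter through libraries of E16.5 or E18.5, the stages where they were high. Cyp2j11 did so through both libraries of E18.5 and the DMSO library of E16.5. Their calls and the count of 7 are therefore descriptions.

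Of these 7, Cyp2j5 rose most (chr4:96627432-96664171); it is an arachidonic acid epoxygenase of the proximal tubule. Its levels were 0.0221, 0.540, 10.1 and 47.2 TPM in the DMSO libraries and 0.0554, 0.0516, 3.47 and 213 TPM in the CPF libraries. At E12.5 these values correspond to about 1 read in either library, and at E18.5 to about 1813 reads in DMSO and 4753 in CPF. The rise was 6.61 ± 0.71 on the log2(TPM + 1) scale (SE, 2 libraries per stage; limma, adjusted p = 0.000863).

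Cyp2j11 (chr4:96294508-96348693) and Cyp2j13 (chr4:96042660-96077566), of the same subfamily and gene cluster but not next to Cyp2j5, had a similar course at lower levels. Cyp2j11 read 0.0418, 0.460, 3.36 and 8.38 TPM in the DMSO libraries and 0.209, 0.0976, 0.883 and 29.6 TPM in the CPF libraries, and rose by 3.92 ± 0.60 (limma, adjusted p = 0.00269). Cyp2j13 read 0.0184, 0.158, 2.03 and 3.53 TPM in the DMSO libraries and 0.277, 0.0646, 1.32 and 12.54 TPM in the CPF libraries, and rose by 2.78 ± 0.49 (limma, adjusted p = 0.00425). In all 3 genes the CPF library was below the DMSO library at E14.5 and E16.5 and above it at E18.5.

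The 7 Cyp2j genes lie within 622 kb of chromosome 4 (chr4:96042660-96077566 to chr4:96627432-96664171 at its ends), and they did not share 1 course. Cyp2j6 (chr4:96516138-96564305), an epoxygenase found in many tissues, was present from the start at 14.54, 13.3, 20.3 and 17.7 TPM in the DMSO libraries and 15.2, 14.9, 19.2 and 47.5 TPM in the CPF libraries. Cyp2j9 (chr4:96568424-96592523), between Cyp2j6 and Cyp2j5, read 2.49, 3.97, 3.20 and 2.70 TPM in the DMSO libraries and 0.625, 3.01, 3.39 and 9.93 TPM in the CPF libraries. On the TPM scale neither rose steadily in DMSO kidneys, where Rmrp and Rpph1 took 19.6% of the total at E12.5 and 41.8% at E18.5. Both genes were highest in the CPF library of E18.5. Cyp2j8 and Cyp2j12 stayed at or below 0.801 and 0.278 TPM.

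The 10 proximal tubule markers listed, among them Lrp2, Cubn and Slc34a1, moved with the rising Cyp2j genes. Their summed level was 11.8, 32.8, 306 and 618 TPM in DMSO and 9.74, 57.5, 241 and 3294 TPM in CPF libraries, so it too was lower in CPF at E16.5 and higher at E18.5, though higher also at E14.5. All 8 of the 10 that were tested rose between E12.5 and E18.5 (limma, adjusted p under 0.05 by Benjamini-Hochberg), and Slc22a8 was listed at 0 throughout. The part of tubule content in the P450 levels was not tested.

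**Figure D3:**
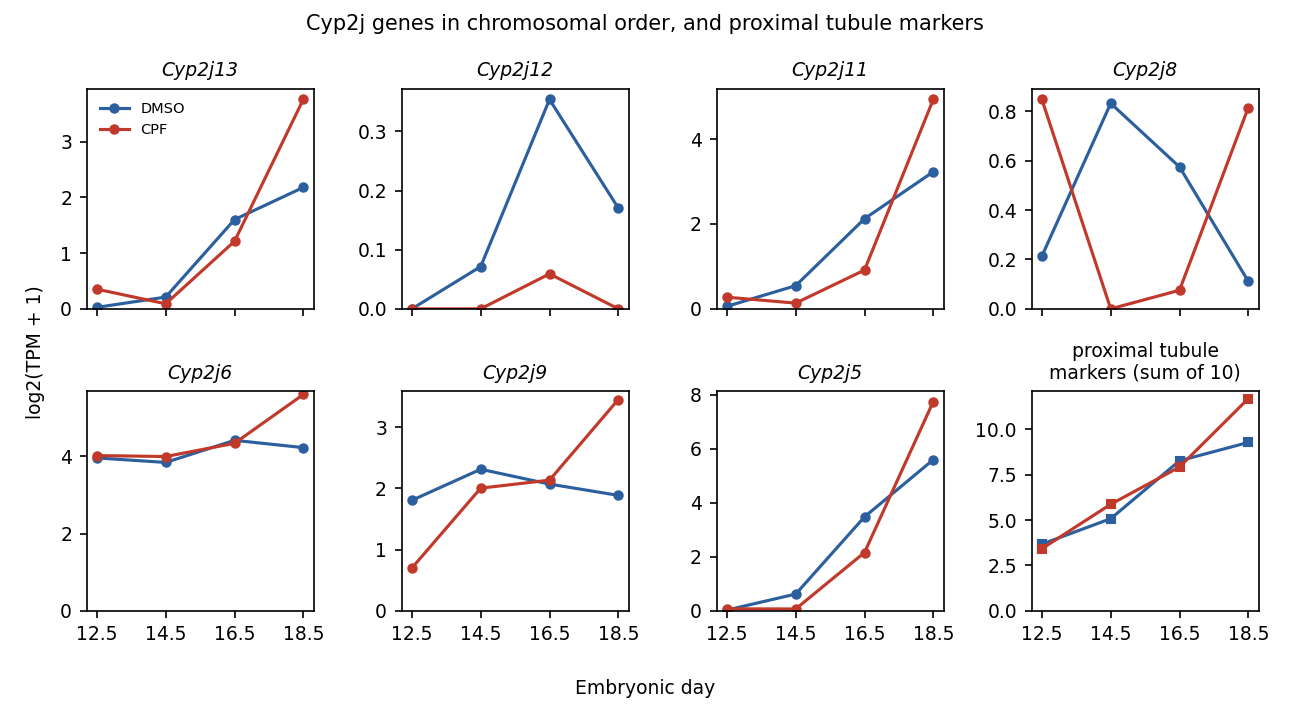
log2(TPM + 1) over embryonic day of the 7 Cyp2j genes in chromosomal order and of the summed proximal tubule markers (squares), DMSO in blue and CPF in red, with a separate vertical scale in each panel and 1 library per point. Cyp2j13, Cyp2j11 and Cyp2j5 climb after E14.5 and the CPF line crosses above the DMSO line between E16.5 and E18.5, while Cyp2j12 and Cyp2j8 stay below 1 TPM.

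Cyp2d26 (chr15:82790107-82794452), of the drug-oxidising Cyp2d subfamily, was the second most abundant P450 gene of the CPF kidney at E18.5. It read 0.0492, 1.44, 11.6 and 11.9 TPM in the DMSO libraries and 1.11, 1.15, 13.4 and 111 TPM in the CPF libraries, and rose by 4.67 ± 0.71 (limma, adjusted p = 0.00482). The DMSO value in TPM was level from E16.5 to E18.5, while Rmrp and Rpph1 went from 31.0% to 41.8% of the DMSO total. The CPF value at E18.5 was far above that at E16.5. Cyp2d10, of the same gene cluster, had another course, given with the liver P450s below. Cyp2d22 was listed at 0 in all libraries and has 2 transcripts.

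Cyp2e1 (chr7:140763819-140774990), which oxidises ethanol and small solvents, read 0, 0.285, 0.273 and 1.44 TPM in the DMSO libraries and 0.175, 0.218, 0.188 and 7.74 TPM in the CPF libraries, and rose by 2.09 ± 0.50 (limma, adjusted p = 0.0230). Only the E18.5 libraries were above 1 TPM, so Cyp2e1 passed the filter through the stage where it was high and had to differ; its call is a description. Cyp4a10 (chr4:115518287-115533649), a fatty acid hydroxylase induced through PPAR alpha, read 0, 0.0949, 2.63 and 3.98 TPM in the DMSO libraries and 0.292, 0.408, 1.56 and 27.1 TPM in the CPF libraries, and rose by 3.38 ± 0.61 (limma, adjusted p = 0.00759). Its near copy Cyp4a32 shares sequence with it, and 69.5% of the Cyp4a10 windows were unique. Cyp4b1 (chr4:115624698-115647721), which activates the furan toxin ipomeanol, was at 0 in both E12.5 libraries and read 0, 0.794, 2.46 and 1.27 TPM in the DMSO libraries and 0, 0.101, 1.70 and 5.39 TPM in the CPF libraries. Its rise was 1.93 ± 0.51 (limma, adjusted p = 0.0364).

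Some of these calls rested on single libraries. Without the CPF library of E12.5, 3 of the 28 genes were called (Cyp2j5, Cyp2j11 and Cyp2j13), where 2.39% of all tested genes rose. Without the CPF library of E18.5, Cyp2e1 fell below the filter and 4 of the remaining 27 were called (Cyp2j5, Cyp2j11, Cyp2d26 and Cyp4a10), where 2.19% of all tested genes rose. The estimate of Cyp4a10 was then 2.17 and that of Cyp4b1 1.01. Leaving out the DMSO library of E12.5 ended the calls of Cyp2d26 (adjusted p = 0.0740 by limma) and Cyp4b1 (0.0949) and added that of Cyp2j9 (0.0470), where 4.46% of all tested genes rose. Without the DMSO library of E18.5, Cyp2j6, Cyp2j9 and Cyp2u1 were added and Cyp2e1 was no longer among those tested, and 8.67% of all tested genes rose. With Rmrp and Rpph1 left out of the scaling, which moved the median of all genes from -0.21 to 0, 9 of the 31 P450 genes then tested were called, Cyp4f13 and Cyp4v3 in addition to the 7, where 6.96% of all tested genes rose.

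Across the 4 stages, 0 of the 28 P450 genes were called between CPF and DMSO, where 0.154% of all tested genes were called higher and 0.00731% lower (limma, adjusted p under 0.05; 5 of the 28 had an unadjusted p under 0.05, and 9.55% of all tested genes). Of the 28, 24 had a positive estimate, with a median of 0.41 against 0.15 over all tested genes on the log2(TPM + 1) scale. Leaving Rmrp and Rpph1 out of the scaling moved the median of all genes from 0.15 to 0.0037. At all 4 stages 8 of 28 were higher in CPF and 1 of 28, Cyp4f17, was lower, against 13.8% and 3% of all tested genes; with Rmrp and Rpph1 left out the counts were 7 and 1, against 8.99% and 8.84%. Cyp2d10 and Cyp2w1, counted among the higher genes in both scalings, passed the filter through CPF libraries alone, so these counts support nothing about the genes as a group.

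The 5 genes with the smallest p were Cyp2c70, Cyp2c68, Cyp3a16, Cyp2d10 and Cyp4v3, all higher in CPF at 4 of 4 stages. Cyp2c70, Cyp3a16 and Cyp2d10 are best known from liver. Cyp2c70 (chr19:40153361-40187286), which makes the muricholic bile acids of mice, read 0, 2.14, 0.0396 and 0.107 TPM in the DMSO libraries and 0.119, 3.54, 5.81 and 1.97 TPM in the CPF libraries. Cyp2c68 (chr19:39688836-39741101), another gene of the Cyp2c cluster, read 0.0457, 3.19, 0 and 0 TPM in the DMSO libraries and 0.172, 8.49, 11.501 and 0.831 TPM in the CPF libraries. The DMSO libraries of E16.5 and E18.5 were at or close to 0 for both genes, and the DMSO library of E14.5 stood apart from the other 3.

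The estimate of Cyp2c70 was 1.21 ± 0.40 (SE, n = 4 stage pairs; limma, adjusted p = 0.289) and that of Cyp2c68 1.47 ± 0.52 (limma, adjusted p = 0.399). Leaving out a library at E16.5 or E14.5 moved these results. Without the CPF or the DMSO library of E16.5 the estimates were 0.70 for Cyp2c70 (limma, adjusted p = 0.771 and 0.797) and 0.74 for Cyp2c68 (0.720 and 0.741). Both genes were called when either library of E14.5 was left out, which with stage in the model removes the same pair: without the CPF library the limma adjusted p was 0.0270 for Cyp2c70 and 0.0124 for Cyp2c68, and without the DMSO library 0.0323 and 0.0161, while the share of all tested genes called higher went from 0.154% to 1.41% and 1.38%. For Cyp2c68, 56.7% of the 50-base windows were unique, the rest being shared mainly with Cyp2c40; for Cyp2c70 all were.

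Cyp3a16 (chr5:145436309-145469740), a Cyp3a form of the fetal liver, read 0, 1.60, 0.392 and 0.212 TPM in the DMSO libraries and 0.0587, 5.25, 6.79 and 0.487 TPM in the CPF libraries. Its estimate was 1.03 ± 0.39 (limma, adjusted p = 0.400), and 0.55 without either library of E16.5 (0.920 without CPF, 0.923 without DMSO). Cyp3a11, the main steroid and drug hydroxylase of adult mouse liver, reached 1 TPM in the CPF library of E16.5 only, and read 0, 0.193, 0.330 and 0 TPM in the DMSO libraries and 0.0988, 0.461, 3.29 and 0.768 TPM in the CPF libraries. Cyp2d10 (chr15:82402845-82407253) read 0, 0.841, 0 and 0.0370 TPM in the DMSO libraries and 0.246, 1.43, 2.08 and 0.765 TPM in the CPF libraries, with an estimate of 0.78 ± 0.31 (limma, adjusted p = 0.427), and 0.50 without the DMSO library of E16.5. It reached 1 TPM in 2 CPF libraries and in no DMSO library, so it was tested through the group where it was high and its place among the 5 is a description. Without either of those CPF libraries it fell below the filter. In the CPF series of Cyp2c68, Cyp2c70, Cyp2d10, Cyp3a11 and Cyp3a16, E16.5 was highest and E12.5 lowest. In all of them but Cyp3a11, E14.5 was above E18.5.

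The 10 liver markers listed, among them Alb, Afp and Apoa1, moved with these genes. Their summed level was 22.9, 1002, 72.1 and 44.9 TPM in DMSO and 212, 5065, 6076 and 1078 TPM in CPF libraries. All 9 that were tested had a positive estimate for CPF and an unadjusted p under 0.05 by limma. Of the 9, 1 was called, Ambp. The 10th, Ahsg, has 4 transcripts and was listed at 0 throughout. Albumin itself read 3.89, 278, 5.77 and 2.03 TPM in the DMSO libraries and 60.9, 1668, 2036 and 373 TPM in the CPF libraries. The 8 adrenal cortex markers, which include the steroidogenic P450s Cyp11a1 and Cyp11b1, summed to 15.6, 55.4, 61.9 and 26.1 TPM in DMSO and 39.2, 678, 679 and 65.4 TPM in CPF libraries. The 7 tested had positive estimates, 5 of them at an unadjusted p under 0.05 by limma, and 1, Akr1b7, was called. Cyp11b1, Cyp21a1 and Mc2r were listed at 0 in the CPF library of E18.5. Some other marker lists were also higher in CPF libraries from E14.5 on, and some were lower. The 5 podocyte markers summed to 43.6, 34.7, 143 and 104 TPM in DMSO and 30.8, 80.6, 193 and 547 TPM in CPF libraries (5 tested, 5 with positive estimates, 0 called by limma and 1 at an unadjusted p under 0.05). The 7 gonad and germ cell markers summed to 10.9, 10.9, 16.3 and 24.8 TPM in DMSO and 10.3, 294, 44.2 and 65.7 TPM in CPF libraries (5 tested, 5 with positive estimates, 0 called by limma and 2 at an unadjusted p under 0.05; Ddx4, with 2 transcripts, was at or near 0 throughout). The 6 mural cell markers summed to 86.0, 99.7, 262 and 267 TPM in DMSO and 129.6, 150.1, 1257 and 611 TPM in CPF libraries (5 tested, 5 with positive estimates, 1 called by limma and 3 at an unadjusted p under 0.05). The 5 macrophage markers summed to 36.7, 78.8, 85.2 and 80.0 TPM in DMSO and 81.1, 112, 171 and 123 TPM in CPF libraries (5 tested, 5 with positive estimates, 0 called by limma and 4 at an unadjusted p under 0.05). The 6 nephron progenitor markers were lower in CPF at every stage, at 406, 313, 300 and 346 TPM in DMSO and 309, 268, 197 and 253 TPM in CPF libraries (6 tested, 1 with a positive estimate, 0 called by limma and 4 at an unadjusted p under 0.05). The sums for collecting duct and kidney identity were lower in CPF up to E16.5 and higher at E18.5. Those for renal stroma and endothelium were lower in CPF at E12.5 and E14.5 and higher later. The part of RNA from these cell types, liver and adrenal included, in the P450 levels was not tested.

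**Figure D4:**
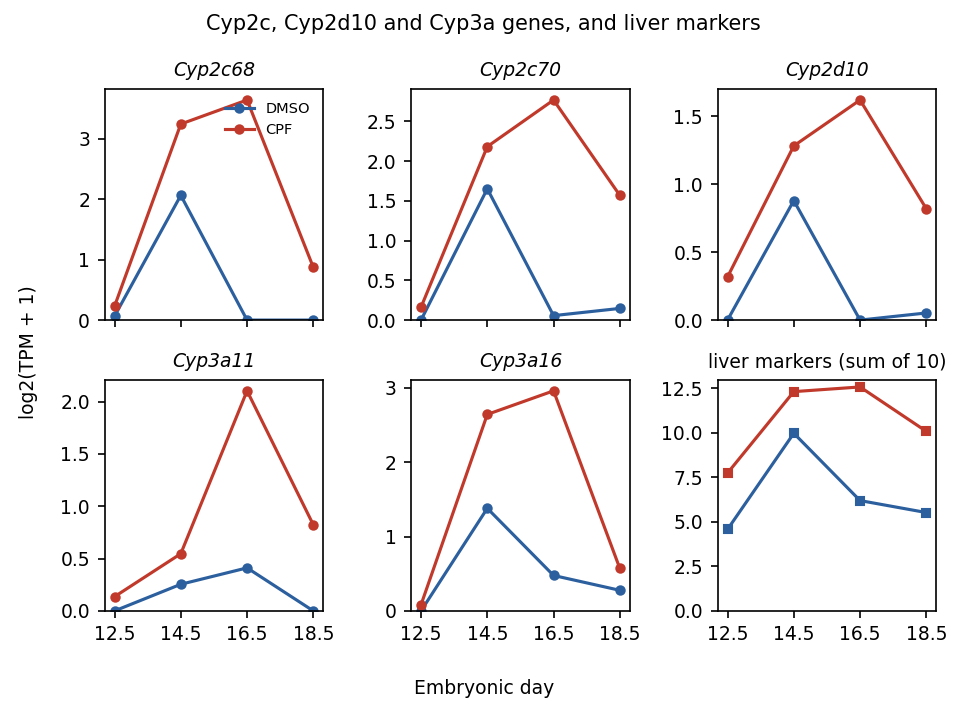
log2(TPM + 1) over embryonic day of Cyp2c68, Cyp2c70, Cyp2d10, Cyp3a11 and Cyp3a16 and of the summed liver markers (squares), DMSO in blue and CPF in red, with a separate vertical scale in each panel and 1 library per point. The CPF line lies above the DMSO line at every stage, with the highest CPF values at E16.5 in all 6 panels.

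Cyp4v3 (chr8:45305801-45333163), a fatty acid hydroxylase whose human counterpart is affected in a retinal dystrophy, was the fifth. It read 0.799, 2.86, 3.07 and 2.47 TPM in the DMSO libraries and 1.86, 3.64, 7.02 and 5.83 TPM in the CPF libraries, with an estimate of 0.72 ± 0.29 (limma, adjusted p = 0.435). The CPF value was above the DMSO value at each stage, but the ranges overlapped.

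Within a stage, 1 CPF library faces 1 DMSO library and there is no test. At least 2-fold differences on the log2(TPM + 1) scale were counted among the 28. At E12.5, 2 were higher in CPF and 1 lower (background 6.04% and 2.5% of tested genes). At E14.5, 3 were higher and 1 lower (6.18% and 2.16%), and at E16.5, 6 were higher and 2 lower (7.44% and 3.2%). The 6 at E16.5 included Cyp2d10, which passed the filter through CPF libraries alone, so that count is a description. At E18.5, 12 were higher and 1 lower (20.4% and 2.02%), so E18.5 held the most genes higher in CPF, both among the P450 genes and among all tested genes.

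At E18.5 the median of the 28 was 0.91, against 0.53 over all tested genes. With Rmrp and Rpph1 left out, the count at E18.5 was again 12 higher, with 2 lower, against 10.5% and 4.25% of all tested genes. The medians were then 0.79 and 0.17. Cyp2e1, among the 12 in both scalings, passed the filter through the E18.5 libraries alone. Cyp2j11, also among them, did so through those and the DMSO library of E16.5. The counts and medians at E18.5 are therefore descriptions. In TPM, Cyp2j5 was 4.51-fold higher in CPF at E18.5 (3.34-fold with Rmrp and Rpph1 left out), Cyp2d26 9.32-fold (6.89-fold) and Cyp4a10 6.80-fold (5.03-fold). The summed proximal tubule markers stood at 3294 against 618 TPM in the same pair of libraries.

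**Figure D5:**
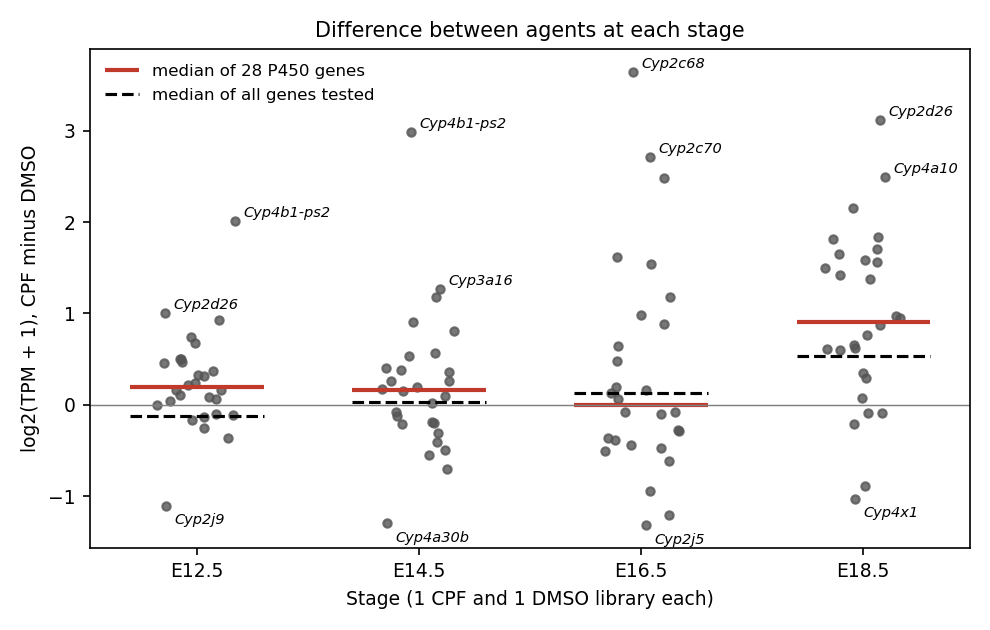
CPF minus DMSO difference in log2(TPM + 1) of the 28 tested P450 genes (points, spread sideways for legibility) at each stage, with the median of the 28 (red line) and of all 13677 tested genes (dashed line). The medians of the 28 are 0.19, 0.16, -0.0066 and 0.91 from E12.5 to E18.5, and the P450 genes at the top of the plot differ between E14.5, E16.5 and E18.5.

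The change per embryonic day differed between the agents for 0 of the 28 genes, and for 0% of all genes tested (limma, agent by day term; 4 of the 28 and 3615 of 13677 genes had an unadjusted p under 0.05). The median over the 28 was 0.13 log2 units per day, against 0.11 over all tested genes. The 5 smallest p were those of Cyp2j9 (0.42 ± 0.11 per day, adjusted p = 0.132 by limma), Cyp2s1 (0.34 ± 0.12, 0.137), Cyp4b1-ps2 (-0.56 ± 0.22, 0.163), Cyp4x1 (-0.34 ± 0.15, 0.188) and Cyp2u1 (0.30 ± 0.15, 0.235). Single libraries moved 3 of these slopes by more than 1.5 times. That of Cyp2u1 was 0.55 without the CPF library of E12.5, 0.064 without the CPF and 0.19 without the DMSO library of E18.5. That of Cyp4x1 was -0.54 and -0.15 without the CPF and DMSO libraries of E12.5, and -0.20 and -0.53 without those of E18.5. That of Cyp4b1-ps2 was -1.02 without the CPF library of E12.5 and -0.26 without that of E18.5.

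Cyp2s1 (chr7:25802469-25816525), a P450 of epithelia outside the liver, read 4.25, 3.46, 3.55 and 5.67 TPM in the DMSO libraries and 3.78, 3.52, 12.2 and 19.99 TPM in the CPF libraries. The CPF values of E16.5 and E18.5 were above all 6 other values. Cyp2u1 (chr3:131290491-131304157), a fatty acid hydroxylase, read 1.21, 1.44, 2.81 and 1.88 TPM in the DMSO libraries and 1.04, 0.727, 2.12 and 9.16 TPM in the CPF libraries, with the CPF library of E18.5 alone above 3 TPM. Cyp4x1 (chr4:115106323-115134079), best known from brain, read 0.266, 1.82, 2.67 and 1.89 TPM in the DMSO libraries and 1.40, 2.67, 1.39 and 0.414 TPM in the CPF libraries, so that the CPF library was the higher at E12.5 and E14.5 and the lower at E16.5 and E18.5.

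The pseudogene Cyp4b1-ps2 (chr4:115582038-115583127) read 0.143, 0.526, 1.68 and 1.19 TPM in the DMSO libraries and 3.59, 11.1, 2.74 and 0.186 TPM in the CPF libraries. It was higher in CPF at E12.5, E14.5 and E16.5 and lower at E18.5. Its transcript is short: the CPF values correspond to about 12, 39, 11 and 1 reads and the DMSO values to about 1, 2, 8 and 6 reads. Of its windows, 65.8% were unique, and it shares the rest mainly with Cyp4b1, whose CPF value was lower at E14.5 and E16.5 and higher at E18.5.

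Cyp4f16 (chr17:32536545-32551798) and Cyp4f17 (chr17:32506192-32530158) belong to the Cyp4f group, which inactivates leukotrienes and hydroxylates long fatty acids. Cyp4f16 read 13.4, 6.58, 10.03 and 8.11 TPM in the DMSO libraries and 10.2, 10.2, 11.1 and 13.3 TPM in the CPF libraries, and Cyp4f17 read 12.55, 10.2, 9.41 and 12.1 TPM in the DMSO libraries and 10.3, 8.72, 8.87 and 10.3 TPM in the CPF libraries. Cyp4f17 was the 1 gene of the 28 that was lower in CPF at every stage, by at most 0.26 on the log2(TPM + 1) scale. Cyp4f13 read 2.51, 4.69, 4.52 and 6.57 TPM in the DMSO libraries and 3.98, 5.53, 7.63 and 10.5 TPM in the CPF libraries, highest at E18.5 in both agents.

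Cyp4f15 read 0, 1.21, 0.254 and 0.429 TPM in the DMSO libraries and 0.380, 1.64, 1.83 and 0.345 TPM in the CPF libraries, with values above 1 TPM at E14.5 in both agents and at E16.5 in CPF. Cyp4a30b read 0.0531, 1.75, 1.73 and 1.12 TPM in the DMSO libraries and 0.133, 0.124, 1.02 and 2.27 TPM in the CPF libraries, and its largest difference was at E14.5, where DMSO was the higher. The PPAR alpha target Cyp4a14 stayed at or below 0.757 TPM, a value reached in the CPF library of E18.5. Cyp4a12b, whose group makes the vasoconstrictor 20-HETE in mouse kidney, reached 1 TPM in that library only, at 2.147 TPM, with 50.6% of its windows unique against Cyp4a12a.

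In family 2 the other tested genes were low. Cyp2r1, a vitamin D 25-hydroxylase with 3 transcripts, read 0.891, 0.908, 1.12 and 1.23 TPM in the DMSO libraries and 2.17, 1.04, 0.747 and 1.09 TPM in the CPF libraries. Cyp2t4 read 2.30, 1.44, 2.37 and 0.767 TPM in the DMSO libraries and 2.08, 1.13, 0.755 and 1.25 TPM in the CPF libraries, with no order by stage. Cyp2w1, known from the fetal gut, read 0.321, 0.131, 0.448 and 0.0807 TPM in the DMSO libraries and 0.872, 1.13, 1.67 and 0.139 TPM in the CPF libraries, higher in CPF at all 4 stages but by little at E18.5; it reached 1 TPM in CPF libraries alone. The pseudogene Cyp2d37-ps read 0.120, 0.295, 1.91 and 0.272 TPM in the DMSO libraries and 0, 1.27, 1.09 and 0.938 TPM in the CPF libraries.

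Among genes that reached 1 TPM in 1 library only, Cyp2f2 had the highest value, 7.34 TPM in the CPF library of E16.5. It is best known from airway club cells. In the other 7 libraries Cyp2f2 was at most 0.489 TPM. The summed liver markers were also highest in the CPF library of E16.5, at 6076 TPM, and their part in the Cyp2f2 value was not tested. The 4 lung and airway markers Sftpc, Sftpb, Scgb1a1 and Nkx2-1 were all listed at 0 in that library; Sftpb and Nkx2-1 have 2 transcripts each, so their zeros are listed values only. The same library held the highest value of Cyp3a13 (2.01 TPM), a Cyp3a form of liver and gut, of Cyp2a12 (1.37) and of Cyp4f40 (1.24). The 4 intestine markers Fabp2, Vil1, Cdx1 and Cdx2 summed to 0.981, 3.29, 12.8 and 13.6 TPM in DMSO and 2.85, 9.67, 32.3 and 87.8 TPM in CPF libraries (2 tested, both with positive estimates, 0 called by limma and 2 at an unadjusted p under 0.05), and Fabp2 alone read 0.167, 1.02, 0.140 and 0.252 TPM in the DMSO libraries and 0.734, 6.84, 4.89 and 0.652 TPM in the CPF libraries. Their part in the levels of Cyp3a13 and Cyp2w1 was not tested.

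Cyp2c55 and Cyp2c67 peaked in the CPF library of E14.5, at 1.76 and 1.49 TPM. Cyp2b9 reached 1.21 TPM in the DMSO library of E14.5 and Cyp2d12 1.10 TPM in the CPF library of E18.5. Of these 10 genes, 9 had their highest value in a CPF library. Each had been kept by 1 high value, so this count describes which library was high and is not a test. The 46 genes below 1 TPM were 2 of family 1 (at most 0.150 TPM), 28 of family 2 (at most 0.801), 6 of family 3 (at most 0.623) and 10 of family 4 (at most 0.933).

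The number of the 84 genes at 1 TPM or more was 9, 18, 21 and 20 in DMSO libraries and 13, 22, 29 and 22 in CPF libraries. The DMSO library of E12.5 listed 52 of the 84 at 0, against 12 to 26 in the other 7. Among genes with 1 transcript, that library listed 59.2% of the P450 genes and 27.6% of all genes at 0, whereas the CPF library of E12.5 listed 15.8% and 19.0%. A fold change at E12.5 of a gene this low therefore rests on whether 1 or a few reads were listed.

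The partners of P450 enzymes were followed in 3 lists. In the first, electron donors and haem supply, 10 of 11 genes were tested and 0 were called with stage or agent by limma (0 and 2 at an unadjusted p under 0.05). P450 reductase (Por), which passes electrons to every P450 named here, read 63.8, 32.2, 45.7 and 34.4 TPM in the DMSO libraries and 37.1, 31.9, 57.1 and 84.0 TPM in the CPF libraries, highest in CPF at E18.5 and in DMSO at E12.5. Cytochrome b5 (Cyb5a) read 259, 536, 413 and 352 TPM in the DMSO libraries and 411, 466, 463 and 545 TPM in the CPF libraries. Haem oxygenase (Hmox1), which degrades haem, read 24.7, 20.4, 25.8 and 12.9 TPM in the DMSO libraries and 40.8, 34.3, 32.2 and 35.8 TPM in the CPF libraries, and the CPF values were all above the DMSO values (adjusted p = 0.266 by limma).

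Of 19 receptors and factors that control these genes, 8 were tested, 2 rose with stage and 0 were called for agent by limma (4 at an unadjusted p under 0.05). The 2 were Hnf4a and Ahr. Hnf4a read 0.0370, 5.88, 28.5 and 28.04 TPM in the DMSO libraries and 0.742, 13.2, 55.9 and 182 TPM in the CPF libraries, a rise of 5.76 on the log2(TPM + 1) scale between E12.5 and E18.5, and the CPF value was the higher at each stage. Ahr rose by 1.37 (limma, adjusted p = 0.0336). The xenobiotic receptors Nr1i2 and Nr1i3, which drive Cyp2b and Cyp3a genes, have several transcripts and were listed at 0.124 TPM or below.

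Of 22 enzymes that act with P450s on arachidonic acid and xenobiotics, 16 were tested, 6 rose with stage and 0 were called for agent by limma (6 at an unadjusted p under 0.05). The 6 were Ephx1, Fmo1, Gsta2, Ptgs1, Ptgs2 and Ggt1. The microsomal epoxide hydrolase Ephx1, which opens epoxides that P450s form, read 0.680, 4.81, 4.10 and 4.83 TPM in the DMSO libraries and 1.03, 5.73, 10.7 and 26.0 TPM in the CPF libraries. Fmo1, the flavin monooxygenase of kidney, read 0.313, 9.81, 29.0 and 40.1 TPM in the DMSO libraries and 5.31, 17.6, 44.0 and 206 TPM in the CPF libraries. The glutathione transferase Gsta2 read 0, 0.464, 16.6 and 33.7 TPM in the DMSO libraries and 0.594, 3.55, 7.54 and 181 TPM in the CPF libraries, below DMSO at E16.5 and above it at E18.5 in the CPF libraries, as were Cyp2j5, Cyp2j11, Cyp2j13 and Cyp4a10.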

How the data were processed

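The submitters' processing notes name Trimmomatic, STAR and the mm10 build, without versions; 2 μg of RNA entered each library, per the labels' protocols. The authors deposited TPM values for 32862 RefSeq transcripts in each library. The counting step is not stated in the sources used here. The symbols of 52 transcripts listed as dates or numbers were restored from RefSeq. Transcripts were summed per symbol; 83 of the 84 P450 genes matched the RefSeq gene table (GRCm38.p6) by symbol and 1 by accession.

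The files hold TPM rather than counts, so limma 3.58.1 (R 4.3.3; trend and robust moderation) was run on log2(TPM + 1) for 13677 genes with at least 1 TPM in at least 2 libraries, which understates the changes of low genes. A first model held stage and agent, and a second agent, embryonic day and their product. Benjamini-Hochberg adjustment ran over the whole table, and adjusted p under 0.05 was a call. Stage pairs the libraries of the 2 agents. The fit was tested on simulated data. The alternatives were other scalings, pseudocounts, filters and model terms, the highest transcript per gene, and each library left out.

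Depth is not kept in TPM; reads were estimated from the steps of low values, 68.3 to 71.6% of which were whole within 0.02 reads. Named genes were all P450 genes at 1 TPM in 1 or more libraries and 11 well studied ones, with fold changes for called genes or, under 5 calls, the 5 smallest p. Members, lists and markers were chosen with earlier results of these data known. Protein sequences were not used here.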

Additional observations from a re-analysis of the deposited data

Results flagged for a closer look

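In 6 of 56 groups of 4 libraries (28 genes in each of 2 agents), 1 library stood apart from the other 3, by a gap to its neighbour larger, as a share of the group's range on the log2(TPM + 1) scale, than Dixon's critical value. Chance flags about 1 in 20 groups, and the 4 libraries of an agent also differ in stage. In the DMSO libraries, E14.5 stood apart for Cyp2c68 (gap 0.969 of the range, 3.19 TPM), Cyp2c70 (0.911, 2.14 TPM) and Cyp2d10 (0.940, 0.841 TPM). The summed liver markers were also highest in that DMSO library, at 1002 TPM against 22.9 to 72.1 TPM in the other 3, and their part in the P450 values was not tested. E16.5 stood apart for Cyp2d37-ps in DMSO (0.849, 1.91 TPM). In the CPF libraries, E18.5 stood apart for Cyp2e1 (0.982, 7.74 TPM) and Cyp2j11 (0.838, 29.6 TPM).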

How the results depend on the processing

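For CPF against DMSO, 22 genes were called in all, and 0 with quantile normalization, with no filter or with embryonic day as a line (1485, 1537 and 1262 at an unadjusted p under 0.05), 1 with either rescaling (coding transcripts, or Rmrp and Rpph1 left out), 38 without robust moderation, 83 with a pseudocount of 0.1, 98 with a filter of 5 TPM in 2 libraries and 42 without E14.5 and E16.5. Leaving out 1 library gave 27 to 220 genes and 0 to 2 P450 genes. With no replicate block, that is without the stage that pairs the libraries, 0 genes were called (656 with an unadjusted p under 0.05), and 0 P450 genes. For E18.5 against E12.5, 1149 genes and 7 P450 genes were called, and 394 and 4 with no filter, 693 and 5 with agent left out, 1232 and 3 with the filter of 5 TPM, which tests 12 P450 genes. Leaving out 1 library gave 629 to 1617 genes and 3 to 9 P450 genes; the lone library of that stage is then assumed to vary like the others. Without E14.5 and E16.5, chosen after seeing the data, 8 P450 genes were called. With no filter Cyp2e1, Cyp4a10 and Cyp4b1 missed the threshold (limma, adjusted p = 0.0921, 0.0568 and 0.131). No slope passed in any setting (1040 to 4092 genes at an unadjusted p under 0.05). The model estimates of the 17 P450 genes followed over the settings kept their sign in each setting that could be run; other genes were not followed, and the E16.5 ratio of Cyp1b1 went from 1.13 to 0.993 with Rmrp and Rpph1 left out. Detection at 0.1 or 5 TPM in place of 1 gave 20 to 60 or 4 to 16 of the 84 genes per library. Depth limits the genes under 1 TPM, most of which rest on a few reads.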
